A study of Homo sapiens with 10 samples.

Results

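The comparison described here set SK-hep1 cells transfected with PSPC1 together with PTK6 (PSPC1/PTK6) against SK-hep1 cells transfected with PSPC1 alone (PSPC1), by sequencing of their RNA. It used 2 of the 10 samples of the series, chosen by their labels and not by any measured value, and it covered all 58302 genes of the tables, of which 12391 were expressed highly enough to be compared. SK-hep1 is an established human cell line, labelled as hepatocellular carcinoma. The other SK-hep1 samples were mock control cells, cells with PSPC1-Y523F, a mutant form in which a tyrosine is replaced by phenylalanine, and cells with PSPC1-Y523F/PTK6. These 3 samples are given as values beside the comparison. All were transfectants of the same parental line grown in the same medium with 10% serum, and PSPC1 and its mutant were cDNAs with an HA tag carried on a plasmid. The labels do not say whether a library came from a pool or from 1 clone.

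PSPC1 belongs, with SFPQ and NONO, to a family of RNA-binding proteins that gather on the long noncoding RNA NEAT1 in nuclear bodies called paraspeckles. PTK6 is a non-receptor tyrosine kinase distantly related to SRC, with SH3 and SH2 domains that dock it to its partners. The question behind the comparison was what changes in cells that carry PSPC1 when the kinase that binds and phosphorylates it is added.

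Each condition had 1 library, so there was no replicate error, no test and no p-value, and a difference between the libraries cannot be told apart from a difference between any other cultures. The PSPC1 library held 20222367 reads on genes and the PSPC1/PTK6 library 23876651. Fold changes are log2 differences of quantile-normalized FPKM (fragments per length of gene and per library total) after 1 was added, and a gene was called higher or lower from a 2-fold change on, a log2 value of 1. Because 1 is added, these values understate the change of low genes. Levels are FPKM as deposited. Ratios are of reads divided by library totals, with an exact 95% counting interval that covers counting error only. Levels are averages over a culture, so a change in every cell and a larger change in a part of the cells cannot be told apart.

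PSPC1 itself differed between both libraries. It had 0 reads in mock, 209 with PSPC1 alone, 930 with PSPC1/PTK6, 71 with PSPC1-Y523F and 2539 with PSPC1-Y523F/PTK6. The ratio of PSPC1/PTK6 to PSPC1 was therefore 3.77 (3.24 to 4.40) for PSPC1, with levels of 7.01 and 26.4 FPKM. PTK6 was present in mock cells with 4.79 FPKM and in PSPC1 cells with 5.69 FPKM. It reached 16.6 FPKM in PSPC1/PTK6, from 307 to 1060 reads, a ratio of 2.92 (2.57 to 3.33). Its log2 fold change was 1.05, and 0.78 with 5 added in place of 1. In the PSPC1-Y523F pair PTK6 went from 4.09 to 10.5 FPKM. Both genes were thus higher in the library labelled with PTK6, and PSPC1 by the larger ratio, so that an effect of the kinase and an effect of more PSPC1 cannot be told apart here.

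The label of the line was checked against marker genes. Of 18 hepatocyte markers, 1 was expressed highly enough to be compared, SERPINA1, an inhibitor of elastase, with 22.3 FPKM in PSPC1 and 42.3 FPKM in PSPC1/PTK6. ALB and TTR, defining hepatocyte products, had 0 reads in all 5 SK-hep1 libraries. The hepatocyte markers thus did not bear out the hepatocellular label. Of 16 endothelial markers 4 were expressed, ENG, ESAM, ROBO4 and NOS3, while KDR had 0 reads in each library, PECAM1 at most 2 and CDH5 at most 14. The summed level of the endothelial list ran from 161 to 256 FPKM over the 5 libraries and was mostly ENG, a co-receptor of TGF-beta ligands, with 150 FPKM in PSPC1 and 163 FPKM in PSPC1/PTK6. Of 12 leukocyte markers only CD14 was expressed, and the pan-leukocyte marker PTPRC had at most 2 reads in any of the 5.

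With PTK6, 383 genes were at least 2-fold higher, 3.09% of the 12391 compared, and 232 were at least 2-fold lower, 1.87%. The median log2 fold change of all genes was −0.02. In 376 of the 383 and 204 of the 232 the counting interval of the ratio of reads lay wholly on the side of the change. The balance depended on the scaling: with FPKM as deposited the median of all genes moved to 0.20 and the calls became 662 higher and 127 lower, so that 83.9% of calls were higher in place of 62.3%. Changes are therefore read relative to the median of all genes.

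The genes that gained most were those of the interferon response. Interferons are secreted proteins that signal through JAK kinases to a transcription factor complex that includes IRF9 and binds a DNA element upstream of a large set of antiviral genes, and cells that sense viral or misplaced nucleic acid release them. Of 48 interferon-stimulated genes expressed, 39 were at least 2-fold higher with PTK6, 0 were at least 2-fold lower and 47 were above a log2 fold change of 0, with a median of 1.73. That is 81.2% of the list called higher against 3.09% of all genes, of which 47.5% were above 0. The list supplied 10 of the 20 largest rises and 10.2% of all genes called higher.

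IFI27, a mitochondrial protein strongly induced by interferon alpha, had the largest log2 fold change of the genes compared. With 0.1 added in place of 1 it came after KRTAP4-8, which had 0 reads in PSPC1, at 6.80 against 7.57. It had 3.52 FPKM in mock, 1.78 with PSPC1 alone, 254 with PSPC1/PTK6, 1.36 with PSPC1-Y523F and 11.2 with PSPC1-Y523F/PTK6. PSPC1/PTK6 stood far above the other 4 libraries, with 4213 reads against 25 in PSPC1, and the log2 fold change was 6.34. IFITM1, a membrane protein that blocks virus entry, was at 1.62 FPKM in mock, 1.18 with PSPC1 alone, 72.3 with PSPC1/PTK6, 0.30 with PSPC1-Y523F and 10.6 with PSPC1-Y523F/PTK6, with a ratio of 61.1 (36.9 to 110) from 15 and 1082 reads. Both PTK6 libraries were above the 3 without added PTK6 for these genes, and PSPC1/PTK6 was above PSPC1-Y523F/PTK6.

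To show what these genes share in sequence, stretches of 60 bases upstream of the start of the named interferon genes are given from RefSeq (GRCh38.p14), read 5′ to 3′ on the strand of the gene. Capitals mark matches to GAAANNGAAA on either strand, the core of the element bound by that complex.
IFI27: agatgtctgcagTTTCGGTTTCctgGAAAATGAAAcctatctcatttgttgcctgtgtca
IFITM1: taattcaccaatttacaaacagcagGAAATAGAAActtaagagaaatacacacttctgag
RSAD2: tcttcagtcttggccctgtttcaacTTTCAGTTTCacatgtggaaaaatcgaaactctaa
IFI6: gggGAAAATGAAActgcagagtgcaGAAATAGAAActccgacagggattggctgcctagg
IFI44: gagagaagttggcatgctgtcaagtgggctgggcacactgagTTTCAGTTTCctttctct
IFI44L: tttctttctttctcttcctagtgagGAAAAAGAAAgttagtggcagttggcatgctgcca
ISG15: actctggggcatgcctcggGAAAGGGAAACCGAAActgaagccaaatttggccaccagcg
These stretches lie at chr14:94110616-94110675 (+) for IFI27, chr11:313975-314034 (+) for IFITM1, chr2:6877607-6877666 (+) for RSAD2, chr1:27672251-27672310 (−) for IFI6, chr1:78649729-78649788 (+) for IFI44, chr1:78620350-78620409 (+) for IFI44L and chr1:1013365-1013424 (+) for ISG15. In ISG15 both matches overlap, and in IFI27 they stand on opposite strands 3 bases apart.

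The promoter window searched ran from 250 bases before to 50 bases after the start, and 9533 of the genes compared had at least 1 window. A match to GAAANNGAAA was present for 21 of 32 interferon-stimulated genes called higher that had a window, or 65.6%, against 3.84% of the genes compared and 4.38% of all 27305 genes with a window. With the members under 2-fold included it was present for 27 of 39, or 69.2%, so the match was not limited to the members called higher. The list was picked as genes stimulated by interferon, so its share does not bear on the rise. The match was present for 21 of 225 other genes called higher, or 9.33%, and for 2 of 130 genes called lower, or 1.54%. OAS1 had a window without a match before the start, and OAS2 and TRIM22 had no window in the table. A match of these letters is a description and not a bound site.

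The enzymes of the antiviral state moved with them. OAS1, which makes the short 2-5A messenger that switches on RNase L, had 8.77 FPKM in mock, 0.996 with PSPC1 alone, 39.0 with PSPC1/PTK6, 0.66 with PSPC1-Y523F and 13.1 with PSPC1-Y523F/PTK6. Its log2 fold change was 4.10, and that of its relative OAS2 was 4.04, from 1.97 to 55.9 FPKM. RSAD2 (viperin), which makes a chain-terminating nucleotide, was 3.97 higher on the log2 scale, from 49 to 1556 reads. OAS1 also stood high in mock against PSPC1, so its level in PSPC1 was itself below that of the mock control.

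A ubiquitin-like modifier and enzymes that attach or remove it were among the genes called higher. ISG15, the modifier itself, had 187 FPKM in mock, 140 with PSPC1 alone, 1312 with PSPC1/PTK6, 73.5 with PSPC1-Y523F and 238 with PSPC1-Y523F/PTK6, a ratio of 9.37 (8.95 to 9.81) on 2037 and 22528 reads. UBE2L6 and HERC5, its conjugating and ligating enzymes, had log2 fold changes of 1.38 and 2.44, and USP18, which removes it, of 1.48. IFI6, which protects the endoplasmic reticulum from viral remodelling, went from 53.9 to 717 FPKM, with 165 FPKM in mock.

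IFI44L had 0 reads in PSPC1 and 352 in PSPC1/PTK6, which is at least 99.4-fold higher when 3 reads are put in place of 0. IFI44 went from 73 to 1427 reads, and TRIM22, a restriction factor of the tripartite motif family, from 18 to 471. The sensors of viral RNA were called higher as well: RIGI by 2.48 on the log2 scale, from 263 to 2744 reads, and IFIH1 (MDA5) by 2.69, from 368 to 3587 reads. The RNA-sensor regulator DHX58 had 1.09, and 0.99 with TMM scaling. HELZ2 was also under 2-fold with that scaling (0.97), and HERC6, IFIT5 and MX2 were with 5 added (0.79, 0.60 and 0.97).

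The 9 expressed interferon-stimulated genes under the 2-fold line were IFITM2, IFITM3, MX1, EIF2AK2, PARP9, TRIM25, TRIM21, BST2 and LAMP3. LAMP3 was the gene below 0, at −0.06, and PARP9 stood just under the line at 0.99. MX1, a dynamin-like antiviral GTPase and a classical marker of the response, had 2.48 FPKM in mock, 0.97 in PSPC1 and 2.61 in PSPC1/PTK6. Its log2 fold change was 0.58 on 27 and 86 reads.

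Over the 5 libraries, 45 of the 48 genes had their highest level in PSPC1/PTK6, against 44.9% of all genes compared. In 40 of the 48 the level in mock was above that in PSPC1, against 54.4% of all genes compared, and 5 of the 48 were at least 2-fold higher in mock than in PSPC1, against 1.64%. Set against mock in place of PSPC1, 29 of the 48 were at least 2-fold higher in PSPC1/PTK6, against 5.29% of all genes compared.

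The interferons and the proteins that carry their signal were measured next. IFNB1, the type I interferon made by epithelial cells, had 19 reads in mock, 13 with PSPC1 alone, 42 with PSPC1/PTK6, 7 with PSPC1-Y523F and 1 with PSPC1-Y523F/PTK6. The type III interferon IFNL1 had 26, 19, 85, 18 and 6 reads in the same order, and IFNL3 10, 31, 98, 13 and 5. PSPC1/PTK6 held the most reads for each, with ratios to PSPC1 of 2.74 (1.44 to 5.56) for IFNB1, 3.79 (2.28 to 6.6) for IFNL1 and 2.68 (1.77 to 4.15) for IFNL3. IFNL2 had 11, 12, 51, 1 and 3 reads. None of these reached 2-fold on the log2(FPKM + 1) scale. In the PSPC1-Y523F pair the log2 fold changes of IFNB1, IFNL1 and IFNL3 were below 0 and that of IFNL2 was 0.23. IFNL2 and IFNL3 are near-identical copies, so reads may have been divided between them.

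Of 25 sensors, receptors and signal transducers expressed, 3 were at least 2-fold higher and 0 lower, with a median of 0.39. IRF7, which amplifies interferon transcription, went from 10.2 to 65.4 FPKM, with 21.7 FPKM in mock and 43.4 FPKM in PSPC1-Y523F/PTK6. STING1, the adaptor of DNA sensing, went from 70.0 to 198 FPKM. IRF1 stood just under the line at 0.998. The receptor chains IFNAR1 and IFNAR2 had 0.24 and 0.33, JAK1 0.16, IRF9 0.14 and the RNA-sensing adaptor MAVS −0.55.

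Antigen presentation by MHC class I, which shows peptides of the cell to cytotoxic T cells and is itself inducible by interferon, moved the same way. Of 20 genes expressed, 9 were at least 2-fold higher and 0 lower, 20 were above 0, and the median was 0.91. HLA-B had 120 FPKM in mock, 130 with PSPC1 alone, 1060 with PSPC1/PTK6, 110 with PSPC1-Y523F and 242 with PSPC1-Y523F/PTK6. HLA-C went from 58.7 to 265 FPKM and the shared light chain B2M from 560 to 1857. In each of these 3 genes the remaining 3 libraries lay closer to PSPC1 than to PSPC1/PTK6.

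The genes of peptide supply and regulation lay slightly above or under the 2-fold line. The transporter subunit TAP1 had a log2 fold change of 1.13, the trimming peptidase ERAP2 1.02, the immunoproteasome subunit PSMB10 1.01 and the class I transactivator NLRC5 1.04. Each of these calls was lost in at least 1 alternative, TAP1 with TMM scaling at 0.99 and ERAP2, PSMB10 and NLRC5 with 5 added at 0.92, 0.75 and 0.84. The immunoproteasome subunits PSMB9 and PSMB8 had 0.92 and 0.61, ERAP1 0.42, the proteasome activators PSME1 and PSME2 0.34 and 0.17, the tapasin gene TAPBP 0.23 and the second transporter subunit TAP2 0.18, none of them called. Reads shared between HLA loci may have been divided by the counting, so their separate values are uncertain.

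The same element was found in front of many of these genes, including members not called higher, so its presence does not bear on the rise. A match to GAAANNGAAA was present for 11 of the 16 class I genes with a window, or 68.8%, and examples of B2M (chr15:44711354-44711413, +) and TAP1 (chr6:32853798-32853857, −) are shown because both carry overlapping matches.
B2M: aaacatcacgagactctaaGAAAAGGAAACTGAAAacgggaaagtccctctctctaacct
TAP1: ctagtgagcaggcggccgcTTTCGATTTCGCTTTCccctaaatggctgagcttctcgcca

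Chemokines and cytokines driven by NF-kB, the transcription factor of inflammatory signalling, formed a further group. Of 20 expressed, 9 were at least 2-fold higher and 1 lower, with a median of 0.82. CCL5, which attracts T cells, had 310 FPKM in mock, 258 with PSPC1 alone, 4347 with PSPC1/PTK6, 225 with PSPC1-Y523F and 280 with PSPC1-Y523F/PTK6. The 4 other libraries lay between 225 and 310 FPKM and PSPC1/PTK6 alone stood apart, with 115112 reads against 5791 in PSPC1, a ratio of 16.8 (16.4 to 17.3).

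CSF3 (G-CSF) had 9 and 580 reads in PSPC1 and PSPC1/PTK6, a ratio of 54.6 (28.5 to 120). The inflammatory cytokines IL1A, IL1B and IL6 had log2 fold changes of 2.72, 2.12 and 2.25, and in the PSPC1-Y523F pair of 1.69, 1.31 and 1.54. The adhesion molecule ICAM1 went from 28.8 to 205 FPKM, the macrophage growth factor CSF1 from 70.2 to 364 FPKM. TNFAIP3 (A20) and BIRC3, inhibitors induced by the pathway, had 1.88 and 2.13. NFKBIA, the inhibitor that NF-kB resynthesizes, had 0.86 and CXCL8 had 0.77.

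CCL2, the monocyte chemokine, went the other way. It had 0.32 FPKM in mock, 10.8 with PSPC1 alone, 1.64 with PSPC1/PTK6, 5.91 with PSPC1-Y523F and 0.90 with PSPC1-Y523F/PTK6, so both libraries with added PTK6 were below their partners and mock was lowest. CCL3L3, a relative of CCL3, was at 77 reads in PSPC1 and 2449 in PSPC1/PTK6, a log2 fold change of 4.24. It has near-identical copies, so its reads may belong to a neighbour.

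Matches to GGGANTTTCC, a form of the NF-kB site, on either strand were present for 8 of the 14 genes of this list that had a window, or 57.1%, against 0.787% of the genes compared. The list was picked as genes driven by NF-kB and the 14 include members not called higher, so this share does not bear on the rise. IL6 (chr7:22727102-22727161, +) and TNFAIP3 (chr6:137867167-137867226, +) are shown with the match in capitals. CCL5 and CSF3 had no window in the table.
IL6: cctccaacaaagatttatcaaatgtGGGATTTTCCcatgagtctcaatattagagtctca
TNFAIP3: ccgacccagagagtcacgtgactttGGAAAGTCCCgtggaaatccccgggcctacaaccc

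Other genes among the largest rises came from several families. KRTAP4-8, a keratin-associated protein of hair, had 0 reads in mock, PSPC1 and PSPC1-Y523F and 396 and 189 reads in PSPC1/PTK6 and PSPC1-Y523F/PTK6. It was at least 112-fold higher in PSPC1/PTK6 than in PSPC1 with 3 reads in place of 0, and reads were found only in both libraries with added PTK6. Its gene sits in a cluster of near-identical copies, so the assignment of its reads is uncertain.

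PXDN (peroxidasin), which cross-links basement membrane collagen, had 148 FPKM in mock, 5.42 with PSPC1 alone, 80.9 with PSPC1/PTK6, 6.48 with PSPC1-Y523F and 35.7 with PSPC1-Y523F/PTK6. Both libraries with PSPC1 forms but no added PTK6 were low and the other 3 were high. SPOCK1, a matrix proteoglycan, went from 9.39 to 126 FPKM and IL7R, the interleukin 7 receptor, from 7.69 to 101 FPKM. The neuroendocrine chaperone SCG5 had 4 and 266 reads. GBP4, an interferon-gamma induced GTPase, went from 21 to 734 reads in the wild-type pair and from 20 to 5 reads in the PSPC1-Y523F pair.

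MMP9, a gelatinase that degrades basement membrane, had 11.5 FPKM in mock, 2.16 with PSPC1 alone, 28.9 with PSPC1/PTK6, 7.37 with PSPC1-Y523F and 4.94 with PSPC1-Y523F/PTK6. PSPC1 was the lowest and PSPC1/PTK6 the highest of the 5. Of 20 matrix proteases and inhibitors expressed, 5 were higher and 2 lower, with a median of 0.29. That is 25.0% and 10.0%, against 3.09% and 1.87% of all genes compared. The other 4 higher were MMP19, TIMP3, PLAU and SERPINE2, at 1.49, 1.87, 1.30 and 1.92, and the 2 lower were MMP24 at −1.99 and ADAMTS1 at −1.12. With 5 added MMP19 had 0.73 and ADAMTS1 −0.85. Proteases and their inhibitors were both among the genes called higher, with PLAU from 372 to 983 FPKM and the inhibitor TIMP3 from 52.7 to 205 FPKM.

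The falls were of a different make-up. Of the 20 largest, 6 lay on the mitochondrial genome and 7 carried symbols beginning with RRP, the name of ribosomal RNA processing factors, and these 13 were all at least 2-fold higher in PSPC1-Y523F/PTK6 than in PSPC1-Y523F. The other 7 were CLEC11A, COL6A3, ADARB2, CALB2, ENTREP2, TNNC1 and PTK2B. The latter 7 are described first.

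COL6A3 encodes the alpha 3 chain of collagen VI, a microfibril of the pericellular matrix. It had 4.73 FPKM in mock, 14.5 with PSPC1 alone, 0.345 with PSPC1/PTK6, 48.5 with PSPC1-Y523F and 1.01 with PSPC1-Y523F/PTK6. Both libraries with added PTK6 were lowest, and the log2 fold change was −3.74 in the wild-type pair and −4.42 in the PSPC1-Y523F pair. Reads fell from 1497 to 42 in the wild-type pair, a ratio 42.1-fold lower (31.0 to 58.6). COL6A1 and COL6A2, the partner chains of the same trimer, were at least 2-fold higher in both pairs, at 2.38 and 1.21 in the wild-type pair and 1.48 and 1.19 in the PSPC1-Y523F pair. Of 18 collagen genes expressed 2 were higher and 2 lower, the other lower being COL9A2 at −1.40 (−0.83 with 5 added), with a median of 0.01. That is 11.1% each way, against 3.09% higher and 1.87% lower of all genes compared.

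ADARB2, a brain-type relative of the RNA-editing enzymes, had 127 reads in mock, 348 with PSPC1 alone, 1 with PSPC1/PTK6, 309 with PSPC1-Y523F and 0 with PSPC1-Y523F/PTK6. The ratio was 411-fold lower with an interval of 73.3 to 16280, which is wide because it rests on 1 read. CALB2, a calcium-binding protein, went from 24.8 to 2.17 FPKM and from 16.8 to 1.44 FPKM in the 2 pairs. PTK2B, a focal adhesion kinase relative, went from 841 to 170 reads and from 394 to 99 reads. ENTREP2 had −2.88 and −1.23.

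CLEC11A, a growth factor for blood and bone progenitors, had 2.67 FPKM in mock, 70.9 with PSPC1 alone, 3.97 with PSPC1/PTK6, 55.9 with PSPC1-Y523F and 37.2 with PSPC1-Y523F/PTK6. Its log2 fold change was −4.06 in the wild-type pair and −0.49 in the PSPC1-Y523F pair. TNNC1, a troponin subunit, had 25.4 FPKM in PSPC1 and between 2.01 and 3.81 in the other 4.

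Among list members called lower, TNC (tenascin C) went from 12.9 to 3.13 FPKM and, in the PSPC1-Y523F pair, from 12.3 to 3.13 FPKM. PHGDH, the first enzyme of serine synthesis, had 87.4 FPKM in mock, 72.9 with PSPC1 alone, 16.7 with PSPC1/PTK6, 39.5 with PSPC1-Y523F and 11.4 with PSPC1-Y523F/PTK6. It was the 1 gene called lower of 27 expressed genes of the unfolded protein and ATF4 response, whose median was 0.07. UHRF1, which carries DNA methylation through replication, was at 54.0 FPKM in PSPC1 and 14.1 in PSPC1/PTK6 and at 65.5 and 67.0 FPKM in the mutant pair.

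The mitochondrial falls came from 1 arc of the circular genome. MT-RNR2, the large mitochondrial ribosomal RNA (MT:1671-3229), had 526 reads in mock, 49924 with PSPC1 alone, 2077 with PSPC1/PTK6, 1177 with PSPC1-Y523F and 22061 with PSPC1-Y523F/PTK6. MT-RNR1, the small one, had 93, 4691, 335, 134 and 3973 reads in the same order. Their log2 fold changes were −4.62 and −4.02. MT-ND5, MT-ND6, MT-CYB and MT-TP, which precede MT-RNR1 on the circle, had −4.34, −4.16, −4.86 and −5.95.

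The rest of the circle did not move with them in the wild-type pair. The 10 expressed genes from MT-ND1 to MT-ND4, which follow MT-RNR2, had log2 fold changes between −0.56 for MT-ND4 and 0.67 for MT-ND1. In the PSPC1-Y523F pair these 10 genes were all lower with PTK6, from −2.09 for MT-CO1 to −0.68 for MT-ND4. There 8 of them were called lower, while the genes of the arc were called higher. MT-CO1, the main subunit of cytochrome oxidase, had 65000 reads in PSPC1 and 99468 in PSPC1/PTK6. Of the 16 mitochondrial genes expressed 6 were called lower and 0 higher, against 1.87% and 3.09% of all genes compared. The 36 expressed nuclear genes of respiratory complex I had none called in either direction and a median of −0.13.

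The nuclear genes with RRP symbols were split between the libraries in the same way. RRP9, a component of the U3 particle that processes pre-ribosomal RNA, had 2.54 FPKM in mock, 53.3 with PSPC1 alone, 1.73 with PSPC1/PTK6, 3.28 with PSPC1-Y523F and 77.8 with PSPC1-Y523F/PTK6. All 9 expressed genes with such a symbol, namely RRP1, RRP1B, RRP7A, RRP7BP, RRP8, RRP9, RRP12, RRP15 and RRP36, were at least 2-fold lower with PTK6, from −1.88 to −4.54, with a median of −3.56. With 5 added RRP15 and RRP7BP were under 2-fold, at −0.74 and −0.79. They lie on different chromosomes, apart from the neighbours RRP1 and RRP1B and the related copies RRP7A and RRP7BP, whose reads may be shared.

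In all 9, PSPC1 and PSPC1-Y523F/PTK6 were above each of the other 3 libraries. These genes were grouped by their symbol after their values were seen. In 24 other ribosome biogenesis factors, such as NOP56, FBL, BYSL, NOB1 and DKC1, also chosen afterwards, 0 were called in either direction, with a median of 0.01 and a range from −0.92 to 0.50. Of these 24, only FBL, at −0.22, had both libraries above the other 3. FTSJ1 and MRM2, RNA methyltransferases, and METTL25B had the same split, with FTSJ1 at 103 FPKM in PSPC1 and 128 in PSPC1-Y523F/PTK6 and between 21.3 and 23.0 in the other 3.

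Over all genes, 26 of the 232 called lower, or 11.2%, were at least 2-fold higher in both PSPC1 and PSPC1-Y523F/PTK6 than in each of the other 3 libraries, among them 6 mitochondrial and 8 RRP genes. The split did not follow the label for added PTK6, since 1 library with and 1 without it were high. Many of these genes have a link to ribosomal RNA in their names: MT-RNR1 and MT-RNR2 are ribosomal RNAs, and the RRP symbols stand for ribosomal RNA processing. MT-ND5, MT-ND6, MT-CYB and MT-TP have no such name. Whether the split arose in the cells or in how reads of ribosomal RNA were removed from each library, before or after sequencing, was not tested. The 13 falls of this kind among the 20 largest are therefore given as values only, and whether they are changes in the cells cannot be told here.

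**Figure D1:**
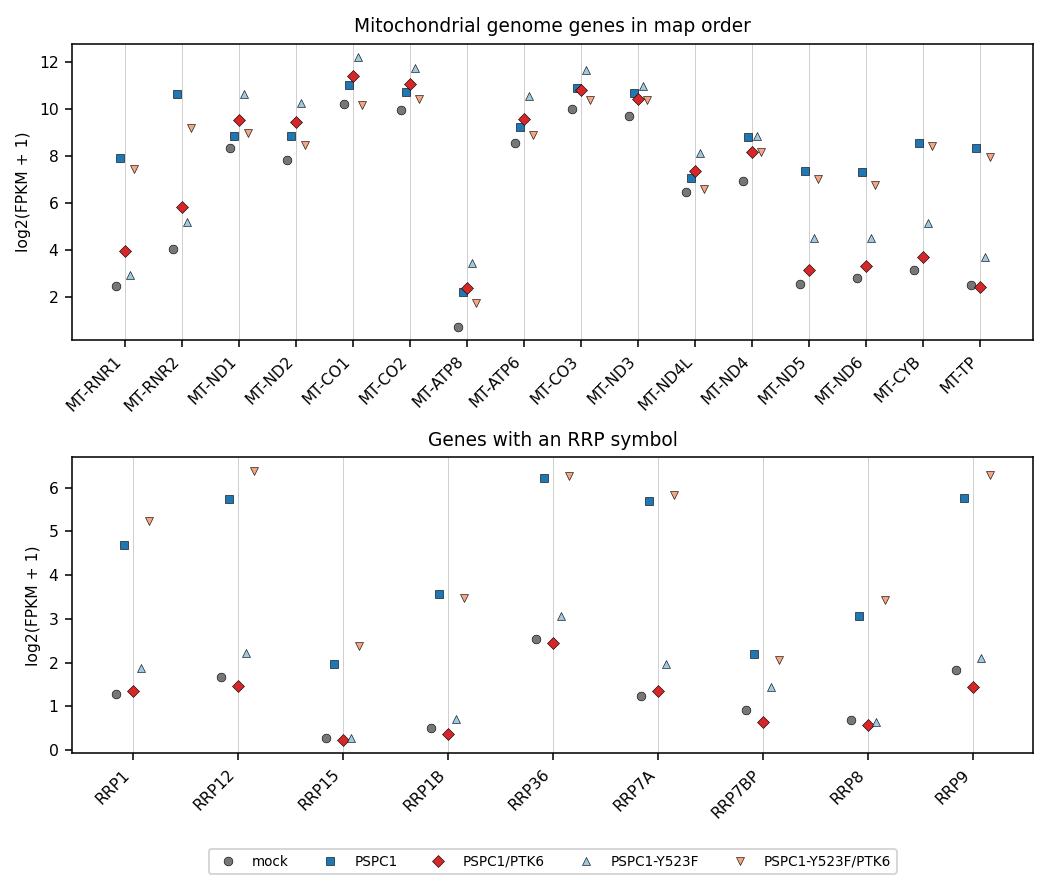
Levels as log2(FPKM + 1) as deposited (vertical axes) of the 16 expressed mitochondrial genes in map order (top) and of the 9 expressed genes with an RRP symbol (bottom), 1 point for each of the 5 SK-hep1 libraries. PSPC1 and PSPC1-Y523F/PTK6 lie above the other 3 at MT-RNR1, MT-RNR2, MT-ND5, MT-ND6, MT-CYB and MT-TP and at all 9 RRP genes. They do not both lie above the other 3 from MT-ND1 to MT-ND4.

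The paraspeckle list was examined because PSPC1 is one of its proteins. Of 17 genes expressed, 2 were higher, PSPC1 and NEAT1, and the median was −0.10. That is 11.8%, against 3.09% of all genes compared, with the transfected PSPC1 itself counted. Apart from PSPC1, only NEAT1 was called. NEAT1, the architectural RNA (chr11:65422774-65445540, +), had 6.46 FPKM in mock, 10.2 with PSPC1 alone, 30.7 with PSPC1/PTK6, 13.2 with PSPC1-Y523F and 3.25 with PSPC1-Y523F/PTK6. Its log2 fold change was 1.25 in the wild-type pair and −1.65 in the PSPC1-Y523F pair. MALAT1, a nuclear RNA encoded next to NEAT1, had 7.89, 15.2, 42.3, 22.2 and 6.59 FPKM in the same order, and so the same order of libraries. The protein partners SFPQ and NONO had log2 fold changes of −0.09 and −0.13, from 278 to 251 and from 571 to 504 FPKM.

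The kinase's own surroundings were close to all genes. Of 27 expressed substrates and partners of PTK6, 0 were called in either direction, and the median was −0.01. KHDRBS1 (Sam68), its best known nuclear substrate, was at 92.0 FPKM in PSPC1 and 93.4 in PSPC1/PTK6. Of 7 related kinases only PTK6 was called, and of 10 ERBB receptors and ligands 0 were, with a median of 0.14.

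The study's genes of epithelial-mesenchymal transition and stemness were low or changed by less than 2-fold. SNAI1 had at most 2 reads in any of the 5 libraries, CDH1 and CDH2 at most 4, SOX2 and WNT3A at most 1 and NANOG 0, so no difference in them could be detected at this depth. POU5F1 had 3 and 7 reads in PSPC1 and PSPC1/PTK6. SNAI2 had 465 reads in mock, 94 with PSPC1 alone, 184 with PSPC1/PTK6, 381 with PSPC1-Y523F and 415 with PSPC1-Y523F/PTK6, so PSPC1 and PSPC1/PTK6 were the lowest, with a ratio of 1.66 (1.29 to 2.15) between them.

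TWIST1 had a log2 fold change of −0.55, TGFB1 −0.45, MYC 0.55, VIM 0.44, JUP 0.64 and CTNNB1 0.09. Of 5 EMT transcription factors expressed 0 were called. Among all genes compared 3.09% were called higher and 1.87% lower. Of 26 mesenchymal genes 3 were higher, COL6A1, COL6A2 and POSTN, and 2 lower, COL6A3 and TNC. POSTN (periostin) had 11 reads in PSPC1 and 540 in PSPC1/PTK6 and at most 6 in the other 3 libraries. Of 15 epithelial genes 2 were higher, CLDN1 at 1.70 and KRT7 at 1.25, both also called higher in the PSPC1-Y523F pair, and the median was −0.28. KRT7 had 0.97 with 5 added.

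Of 10 stemness factors and liver cancer stem cell markers 3 were higher, ICAM1, KLF4 and CD44, at 2.69, 1.21 and 1.01. Among all genes compared 3.09% were called higher and 1.87% lower, and ICAM1 is also on the NF-kB list. CD44, the hyaluronan receptor, stood at the 2-fold line and fell under it, to 0.89, with read counts scaled by TMM, and KLF4 fell to 0.91 with 5 added. Of 14 Wnt targets 3 were higher, CD44, the inhibitor DKK1 at 1.10 and NKD2 at 1.10. DKK1 was under 2-fold with TMM scaling (0.90), with median-of-ratios scaling (0.86) and after a correction for GC content and length (0.95), and NKD2 with 5 added (0.74). Of 32 TGF-beta response genes 2 were, the decoy receptor BAMBI at 1.41 and TIMP3. Of 50 MYC targets 0 were higher and 2 lower, RRP9 and RRP12, with a median of −0.05. Of 29 integrins and focal adhesion adaptors ITGA4 and ITGB3 were higher, at 1.27 and 1.91.

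Lists of proliferation and metabolism held few called genes. Of 35 G2/M genes 0 were called and the median was −0.16. Of 40 DNA replication genes 2 were lower, UHRF1 and GINS4, and 7 were above 0, with a median of −0.30. GINS4 was under 2-fold with 5 added, at −0.82. Of 28 cholesterol genes 0 were called and 5 were above 0, with a median of −0.32, against 0.53 in the PSPC1-Y523F pair. Of all genes compared 47.5% were above 0, 3.09% were called higher and 1.87% lower. Of 26 p53 targets 3 were higher, MDM2 at 1.30, GDF15 at 1.07 and RRM2B at 1.06. The hypoxia list had 0 of 31 called, the STAT3 list 1 of 15, IL6ST at 1.04, and the immediate early genes 1 of 24, FOS at −1.03. Of 7 expressed RNAs without poly-A tails or with an unusual end, 2 were higher, H2BC4 and MALAT1. Some of these calls were lost in an alternative. GDF15 was under 2-fold with TMM scaling (0.94), and with 5 added the values were 0.87 for RRM2B, 0.90 for IL6ST, 0.50 for H2BC4 and −0.52 for FOS. The metallothionein list had 0 of 2 called and the MAGE list 0 of 4.

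The PSPC1-Y523F pair, which shares no library with the wild-type pair, had 469 genes at least 2-fold higher with PTK6, 3.78% of 12398 compared, and 273 lower, 2.2%. Among 11931 genes compared in both pairs, 122 were called higher in both, which is 38.1% of those called higher in the wild-type pair and 29.4% of those in the mutant pair. Called lower in both were 43, or 19.8% and 18.9%. Called lower in the wild-type pair but higher in the mutant pair were 30, and the reverse 15. PTK6 was higher by ratios of 2.92 and 2.56 in the 2 pairs, while PSPC1 was higher by 3.77 and 31.1.

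Of the interferon-stimulated genes 36 of those called higher were compared in both pairs, and 14 of them, or 38.9%, were called higher in both, close to the 38.1% of all genes called higher. The log2 fold change was larger in the wild-type pair in 38 of 45 members, against 50.7% of all genes compared in both. Of the 36 called higher in the wild-type pair it was larger there in 35, against 83.8% of all genes so called, a share that the choice by the wild-type pair raises. The list's median was 0.92 in the mutant pair against 1.73. Whether the pairs differ was not tested, since each has 1 library a side. IFI27, TRIM22, OAS1, IFI6, IFITM1 and SAMD9L were over 4-fold higher in both pairs. OAS2, RSAD2 and CCL5 were under 2-fold in the mutant pair, at 0.99, 0.56 and 0.28. BST2 (tetherin) had 11.5 FPKM in mock, 109 with PSPC1 alone, 207 with PSPC1/PTK6, 59.4 with PSPC1-Y523F and 14.9 with PSPC1-Y523F/PTK6, and was the interferon-stimulated gene called lower in the mutant pair.

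**Figure D2:**
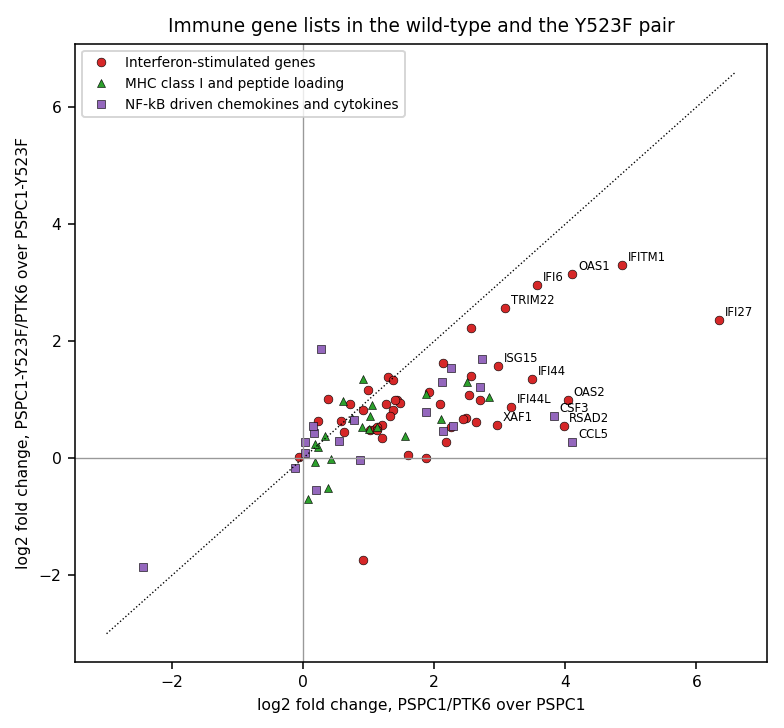
Log2 fold changes of PSPC1/PTK6 over PSPC1 (horizontal axis) and of PSPC1-Y523F/PTK6 over PSPC1-Y523F (vertical axis) for the expressed interferon-stimulated (circles), class I (triangles) and NF-kB list (squares) genes, 1 point a gene, with the dotted line of equal change. Most interferon-stimulated genes lie to the right of and below the dotted line, with medians of 1.73 and 0.92.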

How the data were processed

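RNA of SK-hep1 and Mahlavu transfectants was sequenced by the study (1 library a condition). Per the labels the authors aligned reads to GRCh38.p12 with TopHat2 2.0, counted them with HTSeq 0.6.1 and named edgeR. The study's methods name removal of ribosomal RNA, while the labels describe poly-A selection. The deposited tables hold, for each of 58302 genes, a raw read count and an FPKM value computed by the authors from that count, and 8 lines of each table that name no gene were dropped. The Huh-7 tables were not used here. The FPKM of 8 SK-hep1 and Mahlavu libraries were quantile normalized, genes with a mean of at least 1 over the 2 compared libraries were kept, and log2 fold changes were taken after 1 was added. Counting intervals of read ratios are exact (Clopper-Pearson, 95%) and cover counting error only. With 1 library a side no test was run. Groups came from the labels, and the libraries held 20222367 to 24278662 reads.

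PSPC1, PTK6, the 20 largest rises and falls among genes with a symbol and at least 100 reads in the higher library, the study's own genes and list members changed at least 2-fold were named. The comparison, the 35 gene lists and the genes singled out were chosen with earlier results of these data known. Gene symbols came from a names table and gene types from GENCODE. Promoter windows are RefSeq's, and a motif was searched by its letters on both strands. Alternatives changed the added constant, the scaling (including TMM from edgeR 4.0.16 in R), the filter and the genes included. The fold change and interval code was checked on simulated data. Some results are not reported here.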

Additional observations from a re-analysis of the deposited data

Results flagged for a closer look

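These genes were at least 2-fold changed in opposite directions when PTK6 was added to PSPC1 and to PSPC1-Y523F. The differences between the pairs were not tested, since each pair has 1 library a side. On the log2 scale, with the wild-type pair first, the mitochondrial genes had −5.95 and 4.0 for MT-TP, −4.86 and 3.13 for MT-CYB, −4.62 and 3.84 for MT-RNR2, −4.34 and 2.37 for MT-ND5, −4.16 and 2.12 for MT-ND6 and −4.02 and 4.22 for MT-RNR1. The RRP genes had −4.54 and 3.66 for RRP7A, −4.51 and 3.97 for RRP9, −4.49 and 3.92 for RRP12, −3.96 and 3.01 for RRP36, −3.56 and 3.23 for RRP1, −3.44 and 2.84 for RRP1B, −2.77 and 2.87 for RRP8 and −2.0 and 2.33 for RRP15. In the other direction NEAT1 had 1.25 and −1.65, its neighbour MALAT1 1.23 and −1.46, and NKD2, an inhibitor of Wnt signalling, 1.10 and −1.35. NKD2 rested on 99 and 368 reads in the wild-type pair and on 90 and 24 reads in the mutant pair.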

How the results depend on the processing

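No paired analysis was possible because the comparison has 1 library a side and gives no test. The calls of 383 genes higher and 232 lower moved by over 1.5 times under some of the 14 alternatives, 10 of them listed at the outset and 4 chosen after seeing the data. With 5 added in place of 1 they were 186 and 85, with a mean of at least 5 FPKM 246 and 132, with FPKM as deposited 662 and 127, with FPKM scaled to 1 common sum 781 and 154, and with 0.1 added 382 genes were lower. TMM-scaled counts gave 483 and 195, and removal of the mitochondrial genome 380 and 227. A planned restriction to gene types in the files was not run, and protein-coding genes by GENCODE gave 332 and 169. A correction for GC content and length gave 362 and 222. Over the 12380 genes with these values, the Spearman rank correlation of the log2 fold change was −0.31 with GC content and −0.005 with length. The interferon list had 34 to 40 genes called higher and a median of 1.27 to 1.97, the class I list 6 to 10 genes and the NF-kB list 9 or 10 over the 14. No named gene called at least 2-fold changed sign. Near 0, CTNNB1 ran from −0.13 to 0.12 and KHDRBS1 from −0.23 to 0.03. The 133 named genes include some that were never called, and 26 of those called fell under 2-fold in at least 1 alternative, 20 of them with 5 added. With 1 library a condition the depth sets only the counting error.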

Other observations

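Some further genes, chosen after their values were seen, had large differences outside the lists. IL24, a cytokine of the interleukin 10 family, had 331 reads in PSPC1 and 3504 in PSPC1/PTK6, and at most 234 in the other 3 libraries. C3, the central complement protein, had 8.76 FPKM in mock, 1.87 with PSPC1 alone, 22.9 with PSPC1/PTK6, 5.7 with PSPC1-Y523F and 23.3 with PSPC1-Y523F/PTK6, so both libraries with added PTK6 were highest. APOE, a lipoprotein component, had 3.79, 14.3, 111, 7.0 and 33.5 FPKM in the same order, with the same 2 libraries highest. CD74, the chaperone of MHC class II, had 121, 9.33, 77.6, 9.05 and 13.8 FPKM, with mock highest. DHRS3, a retinal reductase, went from 90 to 1078 reads in the wild-type pair and from 43 to 253 in the mutant pair.

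Low in both libraries with added PTK6 were also SFRP1, a secreted Wnt antagonist, with 49.5 FPKM in mock, 103 with PSPC1 alone, 23.3 with PSPC1/PTK6, 117 with PSPC1-Y523F and 32.3 with PSPC1-Y523F/PTK6, and NTN1 (netrin 1), with 522, 322, 25, 297 and 6 reads in that order. NRP2, a co-receptor of semaphorins and VEGF-C, had 33.8 and 7.97 FPKM in the wild-type pair and 38.7 and 8.51 FPKM in the mutant pair, with 10.4 FPKM in mock. PIEZO2, a mechanosensitive channel, fell from 352 to 28 reads in the wild-type pair and had 202 and 223 reads in the mutant pair.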
